A study of Homo sapiens with 38 samples.

Results

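The comparison set 3 arrays of the resistant clone 16R6-4 in 10 nM GSK212 against 3 arrays of parental A375 cells in 10 nM GSK212, 6 arrays of the 38 in the series, chosen by their labels and with no other drug present. A375 is an established human melanoma cell line, and 16R6-4 was derived from it as a clone resistant to GSK2118436 (GSK436, dabrafenib), a RAF kinase inhibitor. GSK212 is GSK1120212 (trametinib), an inhibitor of the kinase MEK, and exposure lasted 24 h in both lines, in RPMI1640 medium with serum. The resistant cells come from 1 clone, so what belongs to the clone and what belongs to resistance cannot be told apart. Where the text turns to other doses, the resistant clone gave 2 arrays with DMSO and 3 in 30 nM GSK212, and parental cells gave 3 arrays with DMSO and 2 in 30 nM GSK212. Whether replicate arrays stand for separate cultures is not given in the labels, and a p here therefore reflects only array-to-array spread, which may be technical.

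In melanoma cells, growth factor receptors and RAS proteins activate RAF kinases, which activate MEK, which activates ERK. ERK moves to the nucleus and drives transcription of genes for growth and for its own brakes, the DUSP phosphatases and the SPRY and SPRED proteins, so that the level of these transcripts falls when MEK is inhibited. Melanoma cells also keep genes of the neural crest and of the pigment cell lineage, governed by SOX10 and MITF, and can exchange them for other programmes.

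Signals are MAS5 intensities on a linear scale, and differences between lines are log2 fold changes ± standard error from limma, resistant minus parental, of the signal plus 2.8. For signals near or below 2.8 the size of a fold change depends on that added value. A gene was called at a Benjamini and Hochberg adjusted p under 0.05 over all 18063 genes and an absolute log2 difference of at least 1. Below, rose and fell mean higher and lower in the resistant clone than in parental cells, not a change with drug. The median signal ran from 27.74 to 39.7 on the 6 arrays. Arrays correlated with r of 0.926 to 0.936 within the resistant group, 0.922 to 0.932 within the parental group and 0.879 to 0.912 between lines. The ratio of 3' to 5' actin control probe sets, which is higher when RNA is shorter, was 27.4, 13.7 and 27.1 on the resistant arrays and 15.4, 32.1 and 5.90 on the parental arrays. Parental replicate 3 had the lowest ratio and a limma array weight of 0.313, the lowest of the 6. The median difference over all genes in 10 nM GSK212 was -0.07 as deposited and 0.04 after centring each array on its median. That shift applies to every line difference in 10 nM GSK212 below. With DMSO centring moved the median from -0.095 to 0.173, and in 30 nM GSK212 from -0.087 to 0.098. For the difference in 10 nM GSK212 minus that with DMSO, the median moved from 0.044 to -0.115.

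Of 18063 genes, 2104 were called between the lines in 10 nM GSK212 (11.6%), 885 higher in the resistant clone (4.9%) and 1219 lower (6.75%). The 3 resistant and 3 parental arrays did not overlap for 5827 genes (32.3%), and 2027 genes were both called and not overlapping (11.2%). With DMSO, 657 genes were called (3.64%), 266 higher (1.47%) and 391 lower (2.16%), and 398 were called without resistant DMSO replicate 2. In 30 nM GSK212, 1052 were called (5.82%), 407 higher (2.25%) and 645 lower (3.57%), and 673 were called without parental replicate 3 of that group. These comparisons share no arrays. Of the genes called in 10 nM, 427 were called in the same direction with DMSO, which is 20.3% of the 2104 and 65% of the 657, and 3 were called in the opposite direction. With 30 nM GSK212, 796 were called in the same direction, 37.8% of the 2104 and 75.7% of the 1052. The number of arrays differs between these comparisons. The plot of gene lists shows how the calls fell among 27 lists of pathways, cell states and markers. Beside 11.6% of all genes, called shares were 38.1% for ERK output, 27.8% for the kinase cascade, 38.1% for DNA replication and 27.3% for mitosis. They were 33.3% for growth restraint, 55% for neural crest, 29.4% for pigment cell and 46.7% for epithelial genes. The ligand list had 40.9%, matrix 46.2%, proteases 41.2%, TGF-beta and BMP 55%, MHC class II 50%, interferon response 25% and melanoma markers 41.7%.

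**Figure D1:**
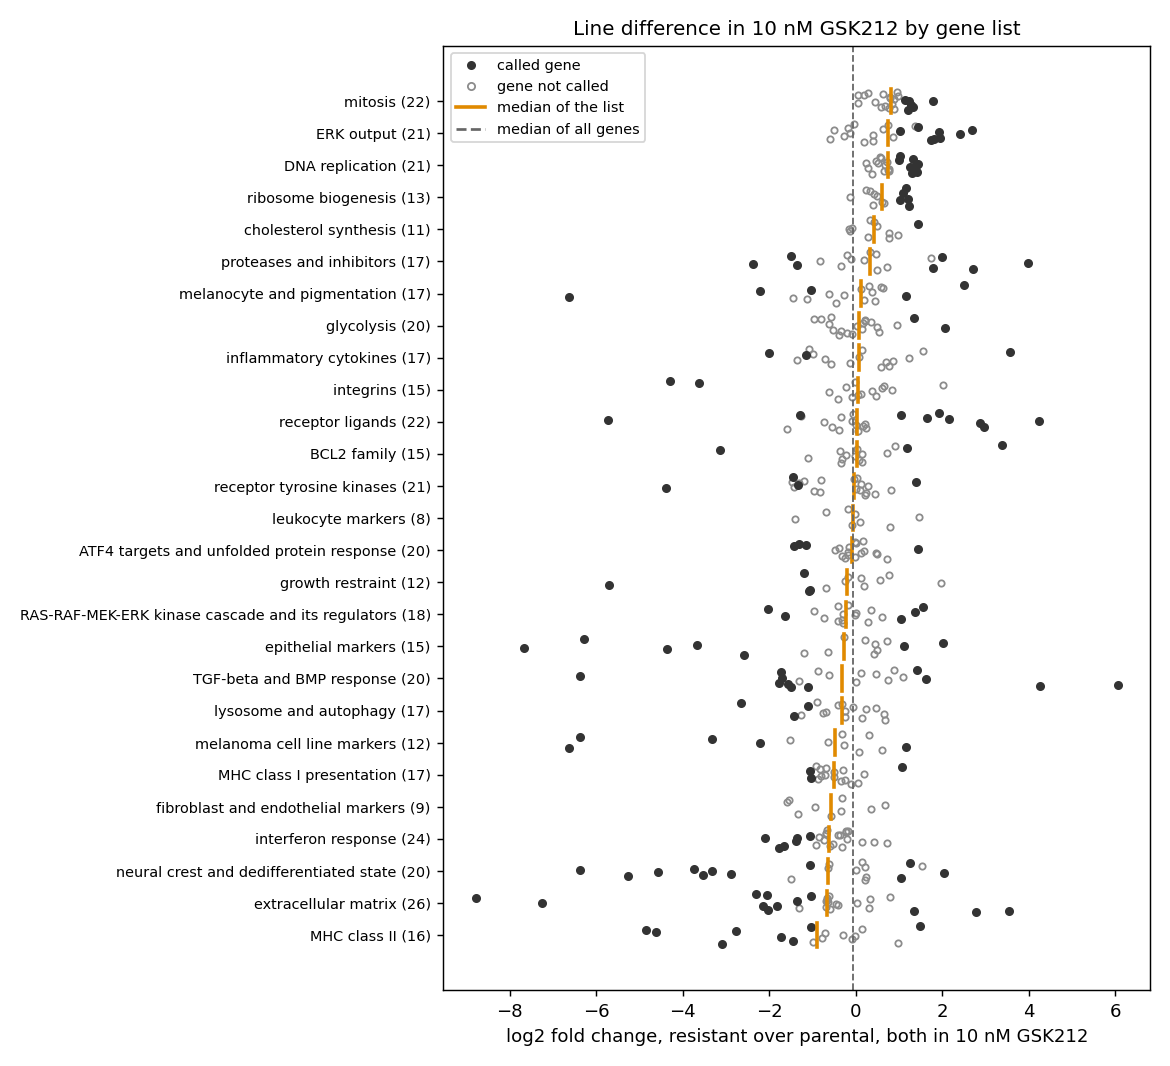
Each point is a gene, placed by its log2 fold change of the resistant clone over parental cells in 10 nM GSK212 on the horizontal axis, with 1 row per gene list and the number of measured genes in brackets. Filled points are called genes, open points are not called, orange bars are list medians and the dashed line is the median of all genes. The mitosis, ERK output and DNA replication lists lie highest, with medians of 0.81, 0.75 and 0.74, and the MHC class II list lowest at -0.89.

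Of 21 measured transcripts driven by ERK, 8 rose in the resistant clone against parental cells under the same dose of MEK inhibitor, 0 fell and 13 did not pass, with a median of 0.75 beside -0.07 over all genes. DUSP6, the phosphatase that inactivates ERK, had signals of 51.8, 68.6 and 60.7 in the resistant clone, against 3.23, 38.7 and 20.4 in parental cells, a difference of 1.81 ± 0.57 (adjusted p = 0.0207). The 3 resistant arrays lay above the 3 parental arrays, but parental replicate 1 was far below the other two. The DUSP6 call was lost without parental replicate 1 (1.02, adjusted p = 0.268), without resistant replicate 2 (1.71, adjusted p = 0.0682) and without resistant replicate 3 (1.80, adjusted p = 0.0513). ETV5, an ETS transcription factor induced by ERK, had signals of 82.6, 52.2 and 68.4 in the resistant clone, against 30.8, 5.42 and 5.38 in parental cells (2.40 ± 0.58, adjusted p = 0.00211). The lines did not overlap for ETV5, and 2 of its parental arrays were near the added value.

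FOSL1, a subunit of the AP-1 transcription factor, had signals of 943, 951 and 907 in the resistant clone, against 360, 241 and 165 in parental cells (1.93 ± 0.29, adjusted p = 5.47e-06). MYC, a transcription factor that promotes growth, had signals of 225, 274 and 254 in the resistant clone, against 47.9, 28.4 and 36.4 in parental cells (2.68 ± 0.62, adjusted p = 0.00145). EPHA2, a receptor tyrosine kinase and ERK target, gave 418, 502 and 426 in the resistant clone, against 143, 107 and 98.8 in parental cells (1.94 ± 0.48, adjusted p = 0.00311). For these 3 genes all resistant arrays lay above all parental arrays. DUSP5, a nuclear ERK phosphatase, rose by 1.74 ± 0.25, and SPRED2, an inhibitor of RAS signalling, by 1.44 ± 0.36. HMGA2, a chromatin protein, rose by 1.03 ± 0.20, and its difference was 0.81 without parental replicate 2, under the size needed for a call.

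Other genes of the list did not pass. SPRY2, a feedback inhibitor of receptor signalling, had signals of 61.7, 68.9 and 50.2 in the resistant clone, against 34.7, 44 and 26.5 in parental cells (0.75 ± 0.72, adjusted p = 0.545). CCND1, which encodes cyclin D1, had signals of 517, 439.7 and 479 in the resistant clone, against 713, 447 and 224 in parental cells (0.20 ± 0.30, adjusted p = 0.723). The parental arrays of CCND1 spread on both sides of the resistant arrays. DUSP4 differed by 0.40 ± 0.23 (adjusted p = 0.263) and its arrays overlapped.

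The levels of these transcripts under drug can be set beside those with DMSO. DUSP6 had signals of 1828 and 1412 in the resistant clone with DMSO, against 2343, 2277 and 2899 in parental cells with DMSO, both far above the levels in 10 nM GSK212. In 30 nM GSK212 it had signals of 26.9, 18.1 and 27.8 in the resistant clone, against 15.4 and 62.2 in parental cells (-0.37 ± 0.64, adjusted p = 0.832). ETV5 differed by 0.10 ± 0.64 with DMSO (adjusted p = 0.973) and by 0.26 ± 0.64 in 30 nM GSK212 (adjusted p = 0.883). FOSL1 was called in 30 nM GSK212 (1.51 ± 0.33, adjusted p = 0.00161), and so were MYC (3.28 ± 0.69, adjusted p = 0.00114) and EPHA2 (2.46 ± 0.54, adjusted p = 0.00186). In 30 nM GSK212, 3 of the 21 list genes rose and 0 fell, and with DMSO 1 rose and 1 fell. DUSP5 differed by 2.27 with DMSO, more than its 1.74 in 10 nM GSK212, and MYC by 1.93, beside 2.68. The DMSO differences of FOSL1 (-0.25), EPHA2 (0.08), SPRED2 (0.39) and HMGA2 (0.54) were smaller.

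Among 18 measured genes of the kinase cascade and its regulators, 3 rose and 2 fell, with a median of -0.23. MAP2K1, which encodes MEK1, a target of the drug, had signals of 595, 764 and 538 in the resistant clone, against 213, 276 and 473 in parental cells (1.04 ± 0.32, adjusted p = 0.0172). Its call was lost without parental replicate 1 (0.78), without parental replicate 2 (0.97), without resistant replicate 2 (0.89) and after centring (1.15, adjusted p = 0.109). MAP2K2, which encodes MEK2, had signals of 712, 548 and 719 in the resistant clone, against 1505, 1347 and 655 in parental cells (-0.75 ± 0.30, adjusted p = 0.0755). Parental replicate 3 was in the range of the resistant arrays, and without it the difference was -1.12 (adjusted p = 0.00599). MAPK3, which encodes ERK1, fell by 1.63 ± 0.25 on the log2 scale (adjusted p = 7.62e-06), with signals of 179, 154 and 142 in the resistant clone, against 540.4, 709.9 and 315 in parental cells. RRAS, a small GTPase related to RAS, had signals of 112, 176 and 147 in the resistant clone, against 679, 639 and 465 in parental cells (-2.02 ± 0.24, adjusted p = 5.35e-08). RRAS2, another such GTPase, and RASA2, a GTPase-activating protein of RAS, were the other called genes, both higher. Leaving out single arrays moved the called genes of this list to between 1 and 3 higher (1 without parental replicate 2) and between 2 and 4 lower (4 without parental replicate 3).

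Of 21 DNA replication genes 8 rose, 0 fell and all 21 had a positive difference, with a median of 0.74, and of 22 mitosis genes 6 rose, 0 fell and all 22 were positive, with a median of 0.81. CDK1, the kinase that drives entry into mitosis, had signals of 2053, 1997 and 1837 in the resistant clone, against 447, 411 and 1002 in parental cells (1.78 ± 0.36, adjusted p = 0.000332). MCM4, a subunit of the replicative helicase, had signals of 1711, 1638 and 2243 in the resistant clone, against 757, 563 and 726 in parental cells (1.44 ± 0.15, adjusted p = 6.97e-09). The resistant arrays of both genes lay above all parental arrays, with parental replicate 3 the highest of its group for CDK1. CCNA2, which encodes cyclin A2, rose by 1.28 ± 0.17 (adjusted p = 3.12e-07). BUB1, a kinase of the spindle checkpoint, rose by 1.33 ± 0.24 (adjusted p = 6.55e-05), but was not called as the mean of all its probe sets (0.81, adjusted p = 0.0750). CDC45, which joins the helicase at origins, had signals of 179.9, 219 and 106 in the resistant clone, against 63.1, 95.7 and 32.8 in parental cells (1.42 ± 0.41, adjusted p = 0.0103). Its call was lost without parental replicate 3 (1.03, adjusted p = 0.0821) and without resistant replicate 2 (1.20, adjusted p = 0.0681). Mitosis genes called numbered 9 without parental replicate 3. With DMSO, 0 genes of either list were called, with medians of -0.19 for replication and -0.18 for mitosis.

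Of 12 measured genes that restrain growth, 4 fell and 0 rose. CDKN1C, which encodes the cyclin-dependent kinase inhibitor p57, had signals of 7.02, 16.1 and 27.8 in the resistant clone, against 1037, 961 and 817 in parental cells (-5.71 ± 0.68, adjusted p = 7.33e-08). With DMSO it had 2.55 and 3.93 in the resistant clone, against 92.1, 96.1 and 109 in parental cells, so the gene was lower in the clone with and without drug, while the parental level was higher in drug than with DMSO. TXNIP, BTG1 and CCNG2 were the other 3 called genes, and the list had 2 lower genes after centring, and 2 lower and 1 higher without parental replicate 3. With DMSO the difference of TXNIP had the opposite sign (1.75), while those of BTG1 (-0.59) and CCNG2 (-0.91) were negative.

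**Figure D2:**
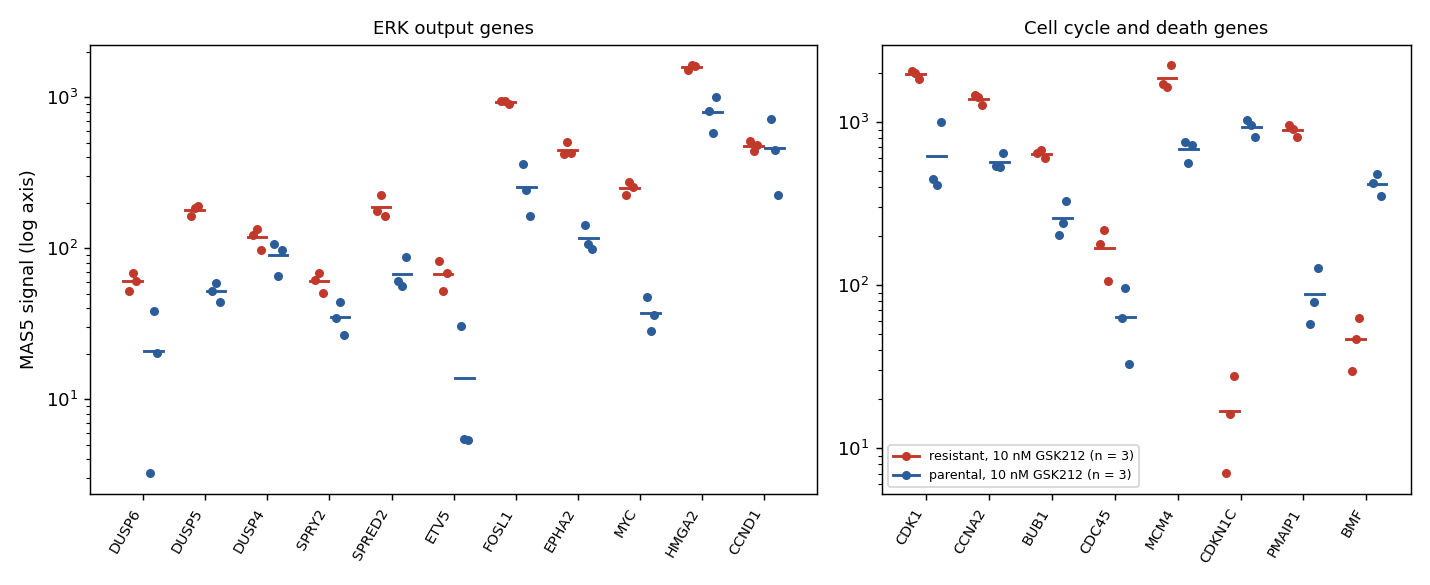
MAS5 signal on a log axis for each array in 10 nM GSK212, resistant in red and parental in blue (n = 3 arrays each), with bars at the group means of the linear signals. ERK output genes are on the left and cell cycle and cell death genes on the right. FOSL1, MYC, CDK1 and PMAIP1 are separated between the lines, CCND1 and DUSP4 overlap, and CDKN1C and BMF are lower in the resistant clone.

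Of 20 genes of the neural crest and dedifferentiated state 8 fell, 3 rose and 9 did not pass, with a median of -0.63. SOX10, the transcription factor of neural crest and melanocyte precursors, had signals of 7.53, 3.40 and 19.8 in the resistant clone, against 1006, 1077 and 770.3 in parental cells (-6.38 ± 0.52, adjusted p = 2.04e-11). MIA, a protein secreted by melanoma cells, had 22.2, 33.7 and 20.3 in the resistant clone, against 3313, 2755 and 2249 in parental cells (-6.63 ± 0.47, adjusted p = 7.02e-13). ERBB3, a neuregulin receptor of this lineage, had 60.8, 26.4 and 41.7 in the resistant clone, against 1707, 1646 and 1647 in parental cells (-5.26 ± 0.48, adjusted p = 3.38e-10). No resistant array reached the level of any parental array for these 3 genes, and their differences with DMSO were of similar size at -6.65 ± 0.58 for SOX10, -6.65 ± 0.52 for MIA and -5.02 ± 0.54 for ERBB3.

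SOX2, a stem cell transcription factor, differed in another way. It had signals of 49.2, 55.6 and 60.7 in the resistant clone, against 607, 666 and 1103 in parental cells (-3.73 ± 0.25, adjusted p = 1.98e-13), and with DMSO 43.1 and 64.2 in the resistant clone, against 70, 87.7 and 80.8 in parental cells (-0.56 ± 0.28, adjusted p = 0.336). FOXD3, a neural crest transcription factor, had 1.17, 5.07 and 3.68 in the resistant clone, against 81.1, 38.8 and 87.5 in parental cells (-3.53 ± 0.63, adjusted p = 7.2e-05). With DMSO, FOXD3 had 6.02 and 10.7 in the resistant clone, against 12.6, 8.55 and 6.18 in parental cells. For both genes the parental signals in drug were above those with DMSO, while the resistant signals stayed low. S100B, a calcium-binding marker of the lineage, fell by 3.32 ± 0.68 on the log2 scale (adjusted p = 0.000367). POU3F2, ZEB1 and CDH2 were the 3 list genes that rose, and 1 higher gene was called in the list without parental replicate 3 or without resistant replicate 1, and 0 with the mean of all probe sets. With DMSO the difference of POU3F2 had the opposite sign (-1.63), beside 0.16 for ZEB1 and 0.22 for CDH2.

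Of 17 measured pigment cell genes 2 rose, 3 fell and 12 did not pass, with a median of 0.12. MITF, the main regulator of melanocytes, had signals of 1194, 1263 and 1238 in the resistant clone, against 404, 589 and 707 in parental cells (1.15 ± 0.20, adjusted p = 4.2e-05). Without parental replicate 1 its difference was 0.93, under the size needed for a call. With DMSO the MITF difference was 1.73, so MITF was higher in the clone without drug as well. TYRP1, a melanin synthesis enzyme, had 34.7, 36 and 48.9 in the resistant clone, against 16.9, 1.63 and 1.84 in parental cells (2.51 ± 0.83, adjusted p = 0.0271). PMEL, the melanosome matrix protein, had 15.1, 3.53 and 1.35 in the resistant clone, against 45.1, 28.9 and 28.1 in parental cells (-2.21 ± 0.77, adjusted p = 0.0373). Both are low signals, and neither call was stable. TYRP1 lost its call without parental replicate 2 (2.14, adjusted p = 0.126), parental replicate 3 (2.18, 0.0893) or resistant replicate 1 (2.60, 0.0554), 2 (2.57, 0.0591) or 3 (2.37, 0.0812), and PMEL without parental replicate 1 (-2.01, adjusted p = 0.130), 2 (-2.31, 0.0742) or 3 (-2.32, 0.0508) or resistant replicate 2 (-2.06, 0.109) or 3 (-1.76, 0.169). With any single array left out the pigment list had 1 higher gene, and it had 1 lower gene after centring and without parental replicate 1 or resistant replicate 2.

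Against the label of a melanoma line, the 12 fixed melanoma markers had summed signals of 15529 to 17975 in the resistant clone and 21479 to 24480 in parental cells, and 4 of them fell (SOX10, MIA, S100B and PMEL) while MITF rose, a call lost without parental replicate 1. Of other cell types, the 15 measured epithelial markers summed to 13011 to 13584 in the resistant clone and 12084 to 17797 in parental cells. The 8 measured leukocyte markers summed to 145 to 205 in the resistant clone and 119 to 275 in parental cells, and the 9 fibroblast and endothelial markers to 365 to 541 in the resistant clone and 499 to 587 in parental cells, with 0 leukocyte, fibroblast or endothelial genes called and 1 lower fibroblast or endothelial marker called without resistant replicate 3. In these bulk samples, fewer cells of a state and less RNA per cell cannot be told apart.

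A set of genes that were low in both lines with DMSO was high in parental cells under the MEK inhibitor and low in the resistant clone. MGP, matrix Gla protein, an inhibitor of calcification, had signals of 2.80, 2.55 and 5.47 in the resistant clone, against 2416, 3109 and 2871 in parental cells (-8.79 ± 0.49, adjusted p = 2.63e-15). With DMSO it had 0.71 and 1.42 in the resistant clone, against 1.33, 2.01 and 1.38 in parental cells (-0.18 ± 0.54, adjusted p = 0.943). The size of the difference in drug depended on the added value and lay between -9.68 and -5.80 over the alternatives. OLFML2A, a secreted olfactomedin-like protein, had 2.04, 3.86 and 3.01 in the resistant clone, against 487, 496 and 491 in parental cells (-6.43 ± 0.47, adjusted p = 1.32e-12). SLC2A12, a sugar transporter, had 22.2, 25.4 and 10.9 in the resistant clone, against 662, 937 and 984 in parental cells (-5.32 ± 0.44, adjusted p = 2.62e-11). DACT1, an antagonist of WNT signalling, had 2.11, 8.09 and 2.16 in the resistant clone, against 217, 234 and 375.1 in parental cells (-5.39 ± 0.59, adjusted p = 1.25e-08). The parental signals of MGP in 30 nM GSK212 were 2318 and 1933, beside 7.98, 5.78 and 18.1 in the resistant clone, so the separation was present at both doses.

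Of 15 measured epithelial markers 5 fell (KRT14, KRT5, KRT13, S100P and CD24), 2 rose (KRT8 and KRT18) and 8 did not pass. KRT14, a basal keratin, had signals of 4.74, 30.4 and 6.29 in the resistant clone, against 3451, 3249.7 and 1715 in parental cells (-7.67 ± 0.60, adjusted p = 6.99e-12). From DMSO to drug this difference changed by -4.31 ± 0.90, less than its full size. KRT14 was thus lower in the clone with DMSO as well. KRT5, its usual partner, had 5.17, 3.76 and 4.75 in the resistant clone, against 62.4, 113 and 108 in parental cells (-3.68 ± 0.81, adjusted p = 0.000883). KRT13 fell by 4.36 ± 0.71 and S100P, a calcium-binding protein, by 6.29 ± 0.63 on the log2 scale. CD24, a surface glycoprotein, was expressed in drug in both lines, with 696, 714 and 628 in the resistant clone, against 4026, 3957 and 4369 in parental cells (-2.60 ± 0.17, adjusted p = 1.63e-13), while with DMSO it had 45.2 and 48.9 in the resistant clone, against 56.1, 63.7 and 79.8 in parental cells. KRT8, a simple-epithelium keratin, had 1239, 1210.2 and 1421 in the resistant clone, against 426, 309 and 237 in parental cells (2.02 ± 0.19, adjusted p = 6.14e-10), and its partner KRT18 rose as well. Without parental replicate 3 the list had 1 higher gene. No array of one line reached the other for KRT14, KRT5, KRT13, KRT8 and CD24. The keratins KRT7 (0.44, adjusted p = 0.165) and KRT80 (0.72, adjusted p = 6.32e-05) were not called.

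**Figure D3:**
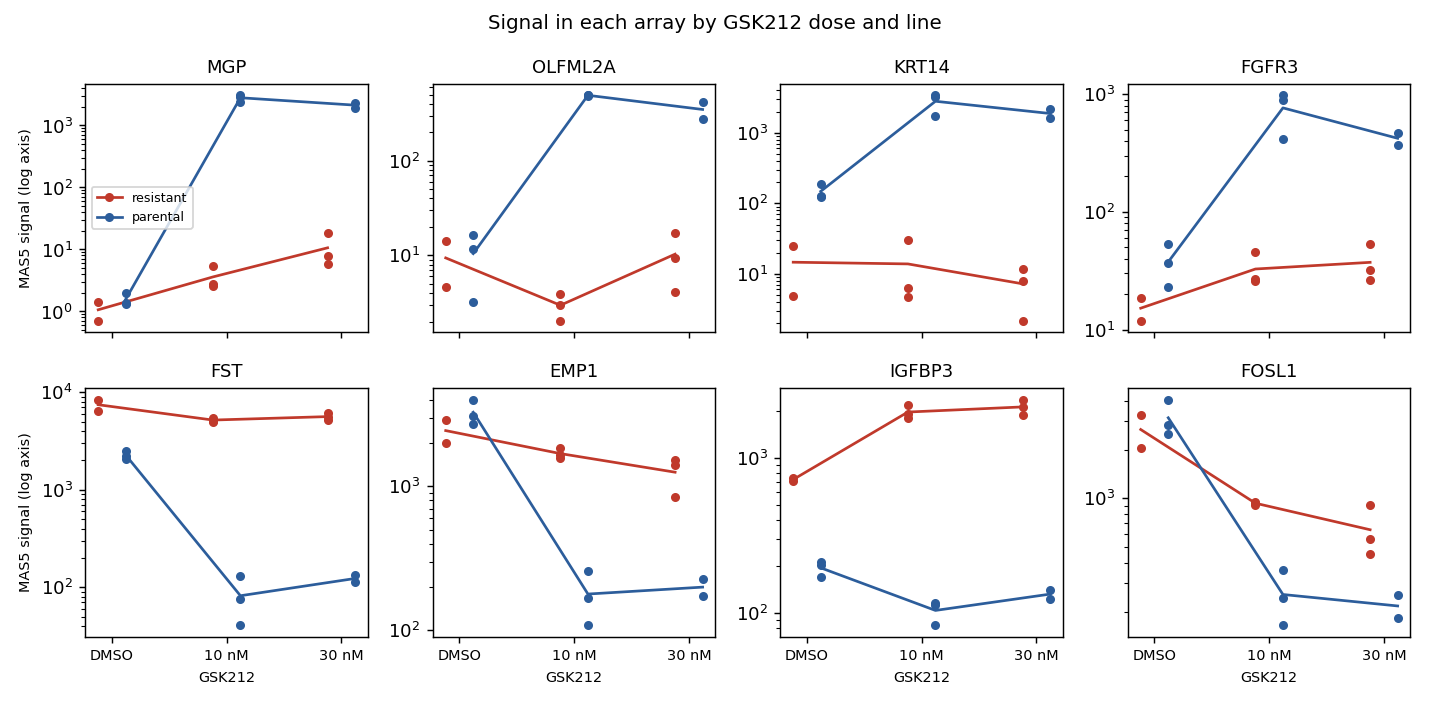
MAS5 signal on a log axis against GSK212 dose (DMSO, 10 nM, 30 nM) for 8 genes, with 1 point per array, resistant in red and parental in blue, and lines through the group means. In the top row MGP, OLFML2A, KRT14 and FGFR3 are higher in parental cells in drug than with DMSO and low in the resistant clone. In the bottom row FST, EMP1 and FOSL1 are lower in parental cells in drug than with DMSO, with a smaller step in the resistant clone, and IGFBP3 is higher in the resistant clone in drug.

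FST, follistatin, which binds activins, had signals of 5112, 5476 and 4943 in the resistant clone, against 129.6, 75.9 and 40.8 in parental cells (6.07 ± 0.24, adjusted p = 2.4e-19). With DMSO it had 8393 and 6473 in the resistant clone, against 2222, 2062 and 2513 in parental cells (1.71 ± 0.27, adjusted p = 3.15e-05). The lines were separated at both, more widely in drug, where the parental level was lower. KISS1, the kisspeptin precursor, had 547, 501 and 608 in the resistant clone, against 5.09, 6.61 and 3.40 in parental cells (6.16 ± 0.45, adjusted p = 1.46e-12). GDF15, a stress-induced cytokine, rose by 4.89 ± 0.49, and BMP4, a bone morphogenetic protein, by 4.25 ± 0.50. BMP4 was near the added value on every parental array (2.54, 3.06 and 2.89), beside 92.2, 121 and 102 in the resistant clone.

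Of 22 measured receptor ligands and growth factor binding proteins 7 rose and 2 fell, with a median of 0.03. IGFBP3, which binds insulin-like growth factors, had signals of 1934, 2211 and 1803 in the resistant clone, against 116, 83.3 and 113 in parental cells (4.23 ± 0.20, adjusted p = 2.4e-17). IGFBP5, a binding protein of the same family, went the other way, with 4.55, 14.8 and 32.5 in the resistant clone, against 879, 871 and 904 in parental cells (-5.74 ± 0.64, adjusted p = 1.68e-08). HBEGF, a ligand of the EGF receptor, rose by 2.87 ± 0.39, FGF2, a fibroblast growth factor, by 2.96 ± 0.49 and KITLG, the ligand of KIT, by 2.17 ± 0.33. TGFA, another EGF receptor ligand, had 64.9, 56.6 and 51.6 in the resistant clone, against 114, 115 and 233 in parental cells (-1.30 ± 0.29, adjusted p = 0.00088). Without parental replicate 3 its difference was -0.96, under the size needed for a call. With DMSO, TGFA had 96.8 and 122 in the resistant clone, against 1953, 2310.4 and 1499 in parental cells (-4.08 ± 0.32, adjusted p = 3.26e-11).

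Of 21 receptor tyrosine kinases, 1 rose and 3 fell, and the list median of -0.03 turned positive after quantile normalization (0.09) or centring (0.08). FGFR3, a fibroblast growth factor receptor, had signals of 25.9, 26.7 and 45.5 in the resistant clone, against 892, 985 and 417 in parental cells (-4.38 ± 0.49, adjusted p = 1.75e-08). MET, the receptor of hepatocyte growth factor, had 2743, 2925 and 2512 in the resistant clone, against 793, 1054 and 1313 in parental cells (1.40 ± 0.26, adjusted p = 0.000117). The mean of all MET probe sets differed by 0.60, under the size needed for a call. Without parental replicate 3 the list had 5 lower genes. The called share of the list was 19%, beside 11.6% of all genes.

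In the BCL2 family, which controls mitochondrial cell death, 2 of 15 genes rose and 1 fell (20% called, beside 11.6% of all genes). PMAIP1, which encodes the pro-death protein NOXA, had signals of 967, 912 and 812 in the resistant clone, against 57.5, 79.3 and 127 in parental cells (3.38 ± 0.22, adjusted p = 7.95e-14). BMF, another pro-death member, had 29.9, 46.8 and 63 in the resistant clone, against 422, 482 and 352 in parental cells (-3.14 ± 0.63, adjusted p = 0.00029). With DMSO, PMAIP1 had 1322 and 1553 in the resistant clone, against 826, 847 and 979.5 in parental cells, and BMF 22.7 and 4.13 in the resistant clone, against 24.1, 3.94 and 32.3 in parental cells, and neither passed the test. MCL1, a survival member and the partner bound by NOXA, differed by 0.91 ± 0.13 (adjusted p = 1.35e-06), under the size needed for a call, which it reached after centring (1.02). HRK was the other gene that rose, and the list had 1 higher gene without parental replicate 1, parental replicate 3 or resistant replicate 3.

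Of 26 measured extracellular matrix genes 9 fell, 3 rose and 14 did not pass, with a median of -0.67, and with DMSO the counts were also 9 and 3. COL9A3, a chain of collagen IX, had signals of 1.31, 12.7 and 7.40 in the resistant clone, against 1059, 1512 and 1479 in parental cells (-7.27 ± 0.48, adjusted p = 1.57e-13). TNC, tenascin C, fell by 2.32 ± 0.26 and THBS1, thrombospondin 1, by 2.06 ± 0.21 on the log2 scale. COL13A1, a transmembrane collagen, had 85.3, 126 and 81.3 in the resistant clone, against 21.9, 2.03 and 2.30 in parental cells (3.54 ± 0.55, adjusted p = 8.11e-06). CCN1, a matricellular protein, had 3059, 3186 and 3198 in the resistant clone, against 383, 386 and 629 in parental cells (2.79 ± 0.25, adjusted p = 1.58e-10). Arrays of the lines did not overlap for any of these 5 genes, and without parental replicate 1 the list had 2 higher genes. The equal counts with DMSO came partly from other genes. MGP (-0.18), FBN1 (-0.02) and COL13A1 (-0.86), all called in 10 nM GSK212, were under the size needed for a call with DMSO.

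Of 17 proteases and inhibitors 4 rose and 3 fell. MMP3, stromelysin, had signals of 1816, 2059 and 2023 in the resistant clone, against 191, 54.5 and 169 in parental cells (3.99 ± 0.28, adjusted p = 7.67e-13). PLAUR, the urokinase receptor, had 591, 744 and 661 in the resistant clone, against 191, 124 and 190.2 in parental cells (1.99 ± 0.17, adjusted p = 3.8e-11). ADAMTS1, a secreted protease, rose by 2.70 ± 0.28 and MMP1, interstitial collagenase, by 1.79 ± 0.27. All 4 rose with DMSO as well. With the mean of all probe sets 1 gene of the list was called lower.

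Of 20 genes of TGF-beta and BMP signalling 7 fell and 4 rose. PMEPA1, an inhibitor induced by TGF-beta, had signals of 45.8, 43.6 and 2.27 in the resistant clone, against 2152, 2251 and 1346 in parental cells (-6.38 ± 0.59, adjusted p = 3.53e-10). ITGB8, an integrin subunit that activates latent TGF-beta, is not in this list and is counted among the integrins. It had 50.2, 104 and 96.1 in the resistant clone, against 760.2, 1406 and 3983 in parental cells (-4.30 ± 0.41, adjusted p = 8.77e-10). Both were also apart with DMSO, at -6.28 ± 0.66 for PMEPA1 and -5.06 ± 0.46 for ITGB8. The other genes of the list that fell were ID1, ID2, TGFB1, LTBP1, BAMBI and BMP2, and besides FST and BMP4 the genes that rose were TGFBR1 and INHBE.

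**Figure D4:**
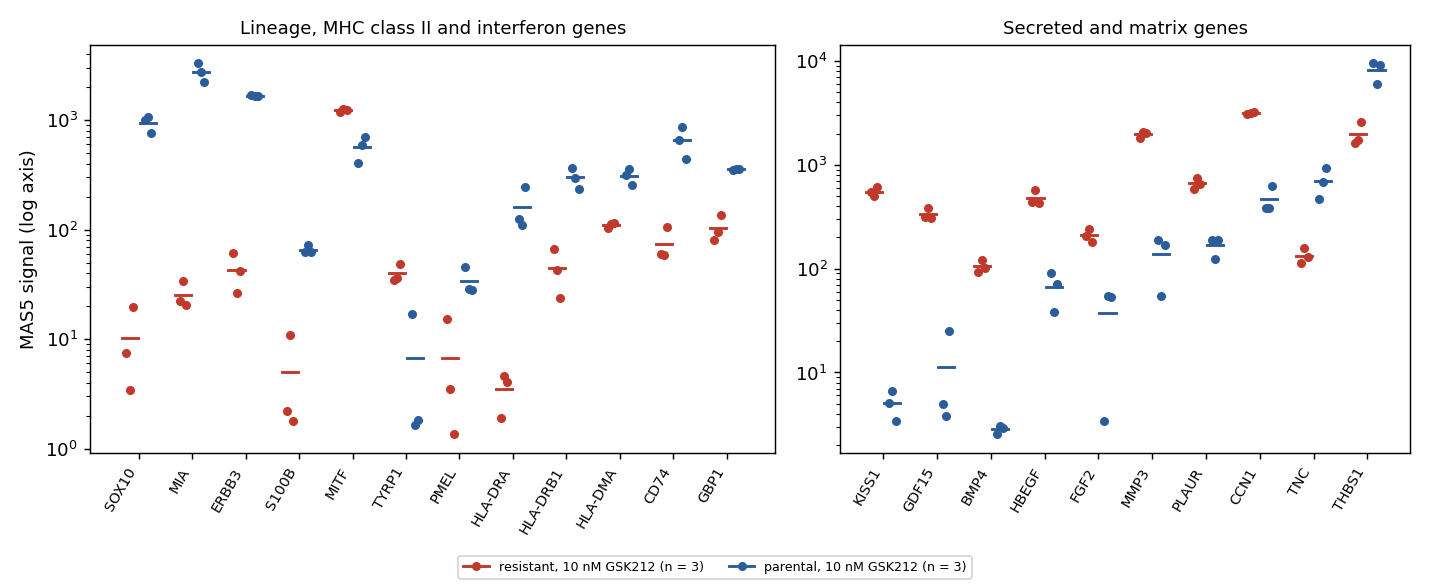
MAS5 signal on a log axis for each array in 10 nM GSK212, resistant in red and parental in blue (n = 3 arrays each), with bars at the group means of the linear signals. Lineage, MHC class II and interferon genes are on the left and secreted and matrix genes on the right. SOX10, MIA, ERBB3 and HLA-DRA are low in the resistant clone, MITF is higher, and KISS1, GDF15 and BMP4 are low in parental cells.

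MHC class II genes present peptides to helper T cells and are switched on together through promoter elements that include a CCAAT-type box. Of 16 measured 7 fell, 1 rose and 8 did not pass, with a median of -0.89, and with DMSO 7 fell and 0 rose. HLA-DRA, the DR alpha chain, had signals of 1.91, 4.63 and 4.04 in the resistant clone, against 125, 109 and 246 in parental cells (-4.62 ± 0.68, adjusted p = 3.03e-06). CD74, the invariant chain, had 59.8, 58.3 and 106 in the resistant clone, against 654, 864 and 446 in parental cells (-3.09 ± 0.27, adjusted p = 7.09e-11). The mean of all CD74 probe sets differed by -0.69 and was not called (adjusted p = 0.341). HLA-DRB1 had 67, 42.4 and 23.6 in the resistant clone, against 369, 299 and 233 in parental cells (-2.77 ± 0.48, adjusted p = 4.29e-05). The DRB genes are near-identical copies, so signals can be shared between HLA-DRB1 and HLA-DRB4 (-4.86 ± 0.47), and the mean of all HLA-DRB4 probe sets was not called (-1.24, adjusted p = 0.149). HLA-DPA1, the DP alpha chain, fell by 1.74 ± 0.17 and HLA-DMA, which helps load peptides, by 1.44 ± 0.26 on the log2 scale. CIITA, the coactivator of class II transcription, had 61.9, 9.98 and 35 in the resistant clone, against 24.8, 30.6 and 1.71 in parental cells (0.97 ± 0.87, adjusted p = 0.509), with overlapping arrays. Its other probe sets, of lower signal, had the opposite sign (-1.16 and -0.62) and did not pass, so the direction for CIITA is not known. RFXANK was the other gene that fell, and RFXAP, the gene that rose, was not called after centring, with only the groups compared, or without parental replicate 1, resistant replicate 2 or resistant replicate 3.

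Of 24 interferon response genes 6 fell and 0 rose, with 21 negative differences and a median of -0.63. IRF7, a transcription factor of the interferon response, had signals of 22.7, 48.1 and 46.4 in the resistant clone, against 267, 198 and 90.7 in parental cells (-2.10 ± 0.47, adjusted p = 0.00116). GBP1, an interferon-induced GTPase, had 80.7, 96 and 137 in the resistant clone, against 352, 358 and 359 in parental cells (-1.78 ± 0.32, adjusted p = 8.43e-05). The mean of all GBP1 probe sets differed by -0.99, just under the size needed for a call. IFITM1, an antiviral membrane protein, had 82.6, 82.1 and 67.2 in the resistant clone, against 219.8, 198 and 202 in parental cells (-1.39 ± 0.40, adjusted p = 0.0104). The lines did not overlap for these 3 genes.

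The promoters of 3 class II genes and 2 interferon genes are shown because these 5 genes were called lower and their groups are known for short promoter elements. They are RefSeq sequences on GRCh38.p14, 5′ to 3′ on the strand of the gene, from 250 bases before to 50 bases after the annotated start. Capitals mark the CCAAT box (CCAAT, either strand) in the first 3 and the interferon-stimulated response element (GAAA, then any 2 bases, then GAAA, either strand) in the others. The regions are chr5:150412861-150413160 for CD74, chr6:32589799-32590098 for HLA-DRB1, chr6:32953048-32953347 for HLA-DMA and chr1:89065159-89065458 for GBP1, all on the minus strand, and chr11:313790-314089 for IFITM1 on the plus strand.
CD74: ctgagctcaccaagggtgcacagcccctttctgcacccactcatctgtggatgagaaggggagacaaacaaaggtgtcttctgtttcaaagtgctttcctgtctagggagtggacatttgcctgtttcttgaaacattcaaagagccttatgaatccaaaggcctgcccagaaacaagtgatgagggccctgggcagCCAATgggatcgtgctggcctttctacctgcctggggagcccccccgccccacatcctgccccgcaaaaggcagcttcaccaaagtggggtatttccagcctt
HLA-DRB1: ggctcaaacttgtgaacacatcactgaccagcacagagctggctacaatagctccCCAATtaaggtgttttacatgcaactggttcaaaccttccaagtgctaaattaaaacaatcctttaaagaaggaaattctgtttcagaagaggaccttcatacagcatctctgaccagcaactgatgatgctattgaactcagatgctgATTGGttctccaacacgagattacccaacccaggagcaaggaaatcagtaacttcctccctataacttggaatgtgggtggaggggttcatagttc
HLA-DMA: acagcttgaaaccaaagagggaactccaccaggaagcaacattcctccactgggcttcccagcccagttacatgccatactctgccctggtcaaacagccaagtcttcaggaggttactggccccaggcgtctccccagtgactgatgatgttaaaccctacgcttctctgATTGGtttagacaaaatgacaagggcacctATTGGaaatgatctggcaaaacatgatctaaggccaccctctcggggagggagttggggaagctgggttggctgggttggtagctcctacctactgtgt
GBP1: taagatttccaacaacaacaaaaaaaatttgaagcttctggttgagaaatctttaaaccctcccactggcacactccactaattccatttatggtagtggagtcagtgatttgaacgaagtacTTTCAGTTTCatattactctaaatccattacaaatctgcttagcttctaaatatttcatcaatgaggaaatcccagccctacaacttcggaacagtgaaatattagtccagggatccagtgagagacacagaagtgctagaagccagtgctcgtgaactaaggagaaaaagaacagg
IFITM1: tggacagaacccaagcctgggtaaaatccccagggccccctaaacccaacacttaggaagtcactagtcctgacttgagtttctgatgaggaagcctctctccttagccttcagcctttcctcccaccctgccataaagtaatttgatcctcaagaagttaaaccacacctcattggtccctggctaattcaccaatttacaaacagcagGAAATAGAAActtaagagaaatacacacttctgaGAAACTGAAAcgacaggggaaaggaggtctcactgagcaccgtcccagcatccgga

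CD74 and GBP1 had 1 match each and HLA-DRB1, HLA-DMA and IFITM1 had 2 each. CCAAT was present in 9 of 12 class II promoters (75%) and in 36.3% of the 14156 promoters of all genes tested. The interferon element was present in 13 of 20 interferon promoters (65%) and in 3% of all promoters. Among all genes called lower the shares were 32.7% for CCAAT and 2.65% for the interferon element, and among genes called higher 40.5% and 2.59%. A match is a description of letters and not of a bound site.

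The line difference itself changed with the drug for some genes. The change, tested as the difference in 10 nM GSK212 minus the difference with DMSO, was called for 343 genes (1.9%), 167 positive (0.925%) and 176 negative (0.974%). Of these, 237 were also called in 10 nM GSK212, and 205 of the 237 were not called with DMSO. The count was 181 without resistant DMSO replicate 1 and 221 without resistant DMSO replicate 2, and after centring it was 199 with 20.6% positive, beside 48.7% positive as deposited. The mean actin ratio was 22.7 in the resistant clone and 17.8 in parental cells in 10 nM GSK212, and 5.47 in the resistant clone and 7.76 in parental cells with DMSO, and a fit with the log2 ratio as a covariate called 706 genes. The part of RNA length in the change was not tested beyond that.

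The largest negative change was that of MGP (-8.61 ± 0.73, adjusted p = 1.13e-09), and CD24 changed by -2.13 ± 0.26 (adjusted p = 1.89e-06). Positive changes included FST (4.37 ± 0.36, adjusted p = 1.13e-09), IGFBP3 (2.34 ± 0.30, adjusted p = 5.53e-06) and PMAIP1 (2.68 ± 0.32, adjusted p = 1.89e-06). EMP1, an epithelial membrane protein, had signals of 1661, 1563 and 1834 in the resistant clone, against 169, 108 and 259 in parental cells in drug, and 2005 and 2865 in the resistant clone, against 3998, 3094 and 2708 in parental cells with DMSO, a change of 3.73 ± 0.45 (adjusted p = 1.89e-06). NTM, neurotrimin, a neural adhesion molecule, was higher in the clone in drug and lower with DMSO. It had 212, 243 and 211 in the resistant clone, against 26.8, 48.8 and 27.6 in parental cells in drug (2.64 ± 0.26, adjusted p = 1.13e-09), and 144 and 142 in the resistant clone, against 578, 588 and 499.6 in parental cells with DMSO (-1.93 ± 0.29, adjusted p = 1.27e-05). NRXN3, a neurexin, rose by 5.06 ± 0.34 in drug and by 2.30 ± 0.38 with DMSO. Replication and mitosis genes had median changes of 1.09 each, with 7 positive calls in each list. Those counts were not stable. After centring, 0 replication genes and 1 mitosis gene were called, and with single arrays left out between 3 and 7 and between 3 and 10 were called, with 3 replication genes without parental replicate 2 of 10 nM GSK212, and 3 mitosis genes without resistant DMSO replicate 2 and 10 without parental replicate 3 of 10 nM GSK212.

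**Figure D5:**
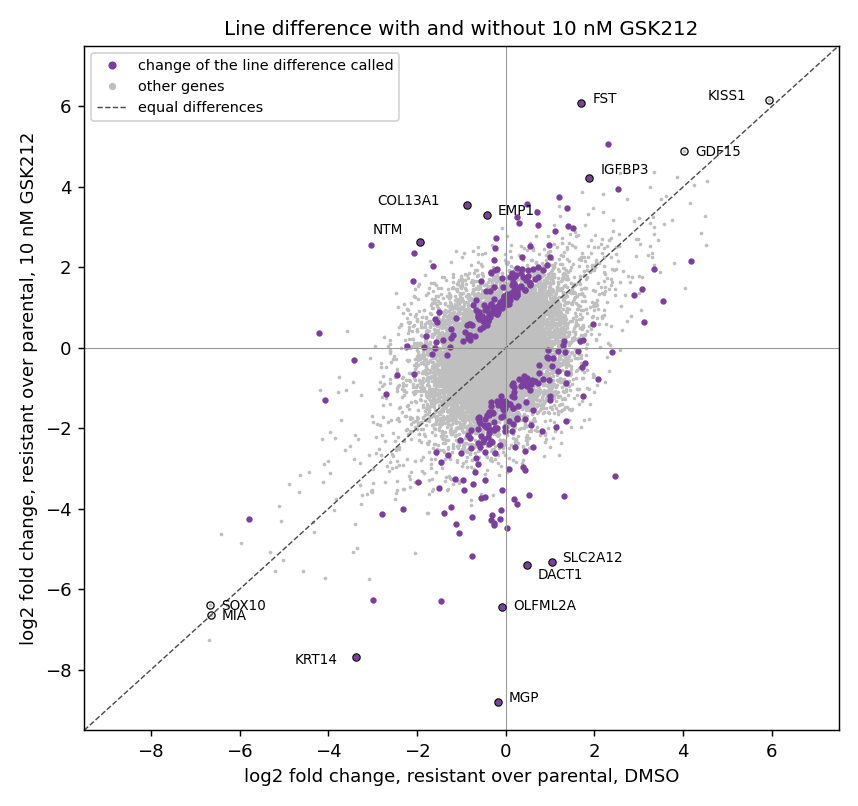
Each point is 1 of 18063 genes, with the log2 fold change of the resistant clone over parental cells in 10 nM GSK212 on the vertical axis and with DMSO on the horizontal axis. Purple points are the 343 genes whose line difference changed, and the dashed line marks equal differences. SOX10, MIA and KISS1 lie near the dashed line, MGP, OLFML2A, SLC2A12 and DACT1 lie far below it, and FST, COL13A1, EMP1 and NTM lie above it.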

How the data were processed

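Gene expression had been measured on 38 one-colour Affymetrix arrays in 14 groups. The deposited values were linear signal intensities from MAS5, a tool named without a version per the submitters' processing notes, and all arrays shared the same trimmed mean. Detection calls were not used. Probe sets were named from the platform annotation of 2016, where 41097 named 1 gene (41043 matched in RefSeq), 1801 several and 11777 none. Probe sets with at least 2 arrays above the pooled median of 34.88 were kept, and each gene was represented by its probe set of highest mean log2 signal, which gave 18063 genes. Of the 82 genes given with values, 49 had several probe sets, and in 36 of these all had a difference of the same sign.

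Signals had 2.8 added, which is the 10th percentile over all arrays, were log2-transformed and entered a linear model in limma 3.58.1 (R 4.3.3) with 14 group means (24 residual degrees of freedom) and eBayes with trend. The fit was tested on simulated data. P was adjusted by Benjamini and Hochberg over all genes of a comparison. The members and lists were chosen with earlier results of these data known. The lists had 501 distinct members in 27 lists, of which 457 were measured. Some list members are not reported here. Eligible genes were the first 15 called in each direction without overlap between arrays, up to 4 called members of each list by size, the ERK output and drug target genes, and the first 8 in each direction for the change of the line difference, 131 in all, and the text gives a selection. FOXD3, CD24, KRT8, KITLG, TGFA, MCL1, TNC, THBS1, MMP1, HLA-DPA1, CIITA and HLA-DMA lie outside this rule and were chosen after their values were seen. So were the list members named without a value in 10 nM GSK212. Same-numbered arrays of the lines did not deviate together (r of -0.00, -0.04 and -0.06), and replicate number was not a block in the main fit. With 3 arrays per group these correlations cannot show whether same-numbered arrays were prepared together. Alternatives were other normalizations, pseudocounts, filters and variance settings, the mean of all probe sets, the actin ratio as a covariate, array weights, only the groups compared, the replicate block and leaving out each array. Counts per gene list under these alternatives were added after seeing the data. Data were handled with pandas 2.3.3 and numpy 2.4.6 and drawn with matplotlib 3.10.9.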

Additional observations from a re-analysis of the deposited data

Results flagged for a closer look

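The line difference in 10 nM GSK212 differed from that with DMSO for 343 genes by the interaction term in limma, of which 30 are given here, as log2 change of the resistant minus parental difference. In 12 of them the call held under each alternative run. These were MGP (-8.61), SLC2A12 (-6.35), OLFML2A (-6.35), DACT1 (-5.87) and CD24 (-2.13) with negative changes, and IGFBP3 (2.34), PMAIP1 (2.68), TGFA (2.79), IL24, a cytokine of the IL-10 family (3.10), EMP1 (3.73), FST (4.37) and NTM (4.57) with positive changes.

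The other 18 lost the call under at least 1 alternative, and 0 changed sign. Those lost only when all probe sets were averaged were SOX2 (-3.17), NRXN3 (2.76) and COL13A1 (4.40). S100P (-4.83) lost it with no pseudocount. KRT5 (-4.99) lost it without resistant DMSO replicate 1 (-2.17, adjusted p = 0.349), and KRT14 (-4.31) and FOSL1 (2.18) without resistant DMSO replicate 2, KRT14 also with no pseudocount. FGFR3 (-3.26) and RRAS (-1.64) lost it without resistant DMSO replicate 1, and MCL1 (1.13) without resistant DMSO replicate 2, each also under at least 1 other setting. MCM4 (1.25) and CCNA2 (1.32) lost it after centring and with averaged probe sets. KRT13 (-4.08), FOXD3 (-3.44), KITLG (-2.01), HK2, a hexokinase (1.13), BUB1 (1.30) and DUSP4 (1.30) lost it under between 8 and 13 of the alternatives.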

How the results depend on the processing

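Over the alternatives that kept all arrays, the line difference in 10 nM GSK212 gave between 1485 called genes (pseudocount at the median) and 3074 (array weights), beside 2104. Leaving out single arrays gave 1663 to 2691 genes in 10 nM GSK212, 398 to 627 with DMSO, 673 to 1179 in 30 nM GSK212 and 181 to 476 for the change of the line difference. That change gave 199 genes after centring, 706 with the actin ratio as a covariate, 1169 with array weights and 171 with only the groups compared, beside 343. With only the groups compared, 639 genes were called in 30 nM GSK212, beside 1052. Centring moved the share of higher calls to 59.1% with DMSO and 57.5% in 30 nM GSK212, beside 40.5% and 38.7% as deposited. The cause of these shifts was not tested. With the replicate block, 2107 genes were called in 10 nM GSK212, 646 with DMSO, 1065 in 30 nM GSK212 and 327 for the change. Same-numbered arrays correlated with r of -0.00, -0.04 and -0.06 in their deviations. Of the 76 genes given with values that were called in 10 nM GSK212, 62 kept the call under each alternative, 14 lost it under at least 1, and 0 changed sign. DUSP6, PMEL, TYRP1, MAP2K1 and HMGA2 lost it most often. HK2 lost it with averaged probe sets (0.83). Leukocyte and ATF4 list medians changed sign after centring. Signals near the added value limit how well the size of a fold change is known.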

Other observations

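Of 13 measured ribosome biogenesis genes, 5 rose and 0 fell with a median of 0.61, and 2 rose without parental replicate 1 or with the mean of all probe sets. NOP58, WDR12, POLR1B, DDX21 and NOLC1 were the 5. Of 20 glycolysis genes 2 rose and 0 fell, with HK2, the hexokinase of glucose entry, at 1530.3, 1779.8 and 2278 in the resistant clone, against 379, 381 and 593 in parental cells (2.05 ± 0.20, adjusted p = 7.97e-10), and SLC2A3, a glucose transporter, the other. That list had 3 lower genes without parental replicate 3 and 2 without resistant replicate 3. Of 11 cholesterol synthesis genes, 1 rose (SQLE) and 0 fell, and 2 rose without parental replicate 2. The called share was 38.5% for ribosome biogenesis, 10% for glycolysis and 9.09% for cholesterol synthesis, beside 11.6% of all genes. The glycolysis and cholesterol shares were thus near that of all genes. Of 17 lysosome and autophagy genes 3 fell and 0 rose, among them TFEB, the regulator of lysosomal genes, at 39.2, 23.6 and 8.72 in the resistant clone, against 165, 209 and 87.5 in parental cells (-2.66 ± 0.64, adjusted p = 0.00212). The called share of that list was 17.6%, beside 11.6% of all genes.

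Of 17 inflammatory cytokines, 1 rose and 2 fell. IL24 had signals of 653, 624 and 592 in the resistant clone, against 88.6, 71.2 and 19.1 in parental cells (3.56 ± 0.34, adjusted p = 6.88e-10), and with DMSO 683 and 533 in the resistant clone, against 408, 387 and 522 in parental cells. IL1B and IL11 fell. Of 17 genes of MHC class I presentation 2 fell (HLA-C and PSMB10) and 1 rose (TAP2), with a median of -0.51. Of these calls, 1 lower gene was left without parental replicate 1, parental replicate 2 or resistant replicate 1, and 0 higher without parental replicate 1. After centring 0 were called lower. Of 15 integrins 2 fell, ITGB8 and ITGB4, and 0 rose, with 1 higher without parental replicate 3. Of 20 ATF4 targets and unfolded protein response genes 3 fell, the amino acid transporter genes SLC7A11, SLC7A5 and SLC3A2, and PSAT1, an enzyme of serine synthesis, rose. The median of that list was -0.09 as deposited and 0.02 after centring. Called shares were 17.6% for cytokines and for class I presentation, 13.3% for integrins and 20% for the ATF4 list, beside 11.6% of all genes. Across all 7 comparisons of the lines, each at a matched treatment, 91 genes were called higher and 142 lower in the resistant clone.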
